A study of Mus musculus with 54 samples.

Results

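Collagen VI and the fibril-associated collagens of H2K myogenic progenitors are described here by 6 genes: Col6a1, Col6a2, and Col6a3, which encode the 3 chains of the common collagen VI molecule, and Col12a1, Col14a1, and Col16a1. The genes were chosen by name and were matched by NCBI gene number in the deposited tables, which list 19653 genes in all. H2K progenitors are mouse muscle precursor cells that carry an interferon-inducible immortalizing allele, so that all 6 lines share it. The lines are wildtype, EMD-/y (labelled Enull, with no emerin), and 4 lines made from EMD-/y by lentivirus carrying wildtype emerin (+EMD), S54F, Δ95–99 (labelled 9599), or Q133H. RNA was taken at 0, 24, and 48 hours of differentiation, called days 0, 1, and 2 here, with 3 labelled replicates in each of 18 groups and 54 samples in all. The 4 transduced lines were selected with puromycin, at doses that differ between lines, and the mutant lines were plated more densely for RNA than wildtype and EMD-/y, with no density given there for +EMD. Thus, transduction, puromycin, plating, and emerin form cannot be told apart. Each line is 1 population of cells, and a line transduced with an empty vector was not analysed here.

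Collagen VI is assembled inside the cell from an α1, an α2, and an α3 chain, then into dimers and tetramers that join end to end outside the cell as beaded microfilaments. These filaments lie next to the basement membrane of muscle fibers, and mutations of the 3 genes cause Ullrich congenital muscular dystrophy and Bethlem myopathy. Collagens XII, XIV, and XVI are fibril-associated collagens with interrupted triple helices (FACITs), which sit on the surface of collagen fibrils and link them to other matrix proteins. In muscle, much of the collagen VI of the interstitium comes from fibroblasts and fibro-adipogenic progenitors, and cultured myogenic cells also transcribe these genes.

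The genes are given in the mouse build GRCm38.p6. Col6a1 (NCBI gene 12833) lies at chr10:76708792-76726044 and Col6a2 (12834) at chr10:76595756-76623630, both on the minus strand and 85162 bases apart. Col6a3 (12835) lies at chr1:90766860-90844001 on the minus strand. Of the FACIT genes, Col12a1 (12816) lies at chr9:79598987-79721141, Col14a1 (12818) at chr15:55307644-55520803, and Col16a1 (107581) at chr4:130047817-130099277 on the plus strand. The Col14a1 interval overlaps Gm52209 and Gm18787, and the Col16a1 interval overlaps Gm12963 and Gm46871. None of these 4 predicted genes has a row in the tables, and whether the counting used strand is not given in the sources used here.

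RefSeq start site sequences are shown for the 3 collagen VI genes, whose reads were lower in Q133H, and for Col16a1, whose reads were higher there. Each window runs from 250 bases before to 50 bases after an annotated start and is written 5′ to 3′ on the strand of the gene. Capitals mark matches on either strand to the E-box CANNTG, which MyoD family factors bind, and to the GC box GGGCGG, which Sp1 binds. No window was given for Col12a1 or Col14a1.
Col6a1, chr10:76725995-76726294: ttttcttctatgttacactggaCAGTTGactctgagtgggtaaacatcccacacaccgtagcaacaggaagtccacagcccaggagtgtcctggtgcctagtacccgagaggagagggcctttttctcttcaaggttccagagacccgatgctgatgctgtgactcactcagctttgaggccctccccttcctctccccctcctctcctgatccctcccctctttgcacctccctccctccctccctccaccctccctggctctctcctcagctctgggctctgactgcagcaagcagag
Col6a2, chr10:76623355-76623654: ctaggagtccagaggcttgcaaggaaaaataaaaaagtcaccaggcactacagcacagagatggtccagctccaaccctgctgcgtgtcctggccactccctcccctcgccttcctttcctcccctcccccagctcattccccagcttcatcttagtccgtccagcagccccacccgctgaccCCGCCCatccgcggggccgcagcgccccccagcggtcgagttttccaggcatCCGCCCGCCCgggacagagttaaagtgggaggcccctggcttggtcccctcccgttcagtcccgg
Col6a2, chr10:76623581-76623880: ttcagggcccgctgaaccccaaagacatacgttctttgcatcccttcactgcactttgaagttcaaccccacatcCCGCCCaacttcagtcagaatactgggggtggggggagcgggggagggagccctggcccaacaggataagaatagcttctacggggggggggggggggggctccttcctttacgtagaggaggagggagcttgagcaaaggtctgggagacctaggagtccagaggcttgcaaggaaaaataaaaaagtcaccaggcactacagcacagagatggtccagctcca
Col6a3, chr1:90843922-90844221: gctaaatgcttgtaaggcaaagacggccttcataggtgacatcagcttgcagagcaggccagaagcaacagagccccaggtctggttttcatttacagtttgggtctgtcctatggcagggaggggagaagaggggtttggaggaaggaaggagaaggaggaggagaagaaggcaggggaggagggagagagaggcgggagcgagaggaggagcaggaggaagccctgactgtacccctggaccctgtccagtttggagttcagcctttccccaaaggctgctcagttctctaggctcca
Col16a1, chr4:130047590-130047889: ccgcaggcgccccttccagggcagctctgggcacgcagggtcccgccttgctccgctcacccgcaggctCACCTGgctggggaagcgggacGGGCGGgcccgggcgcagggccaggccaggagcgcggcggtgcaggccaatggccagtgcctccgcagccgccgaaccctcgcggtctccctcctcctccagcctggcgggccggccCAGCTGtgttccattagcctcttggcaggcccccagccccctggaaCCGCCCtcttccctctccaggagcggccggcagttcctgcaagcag

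The Col6a1 window holds 1 E-box and no GC box. Both Col6a2 windows lack an E-box, with 3 GC boxes, of which a pair overlaps, in the first and 1 in the second. The Col6a3 window holds neither motif, and the Col16a1 window holds 2 of each and 1 match to CCAAT. An E-box occurred in 72.3%, a GC box in 35.7%, and CCAAT in 37.4% of 32851 such windows of mouse genes. A search for TATAAA, found in 13.6% of windows, gave no match in these 5. GGAATG, the core of a TEAD motif that occurs in 14.7% of windows, matched once, in the first Col6a2 window. A match is a description of the sequence only.

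The reads of each library were recovered from the deposited group values, as described under processing, for 19645 of the 19653 genes, and these libraries carry no replicate number. Library totals ran from 15.5 M to 19.3 M reads. Normalized reads are reads divided by the size factor of the library. The methods of the study give both biological and technical replicates, and which of these the 3 labelled replicates are is not clear, so the p-values measure only the spread between these libraries, which may be technical. In 14 of the 18 groups, 1 library stood apart, in that its chi-square per gene to the nearer of the other libraries was at least 4 times that between them. Calls of the 6 genes lost when the closest pair of libraries in each group was averaged into 1 are therefore given, beside those lost in a fit of only the groups compared, with voom weights, or with another scaling, filter, or pseudocount. Emd, the targeted gene, had between 1145 and 2051 normalized reads in wildtype libraries and at most 2.90 in any library of the other lines, including those that carry an emerin transgene, whose transcript was not measured here.

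Wildtype progenitors had reads of all 6 genes, at levels that spanned a wide range. On the scale of normalized reads per kilobase of deposited transcript length, the day 0 wildtype level was 707 for Col12a1, 392 for Col6a1, 137 for Col6a2, 45.7 for Col6a3, 41.7 for Col16a1, and 0.452 for Col14a1. Collagen XII thus had the highest level of the 6 on day 0, while on day 2 Col6a1 was at 441 and Col12a1 at 205, and collagen XIV was near the limit of detection on all 3 days. All 6 genes passed the filter on low reads, which asked for a group with a mean of 10 or more normalized reads. Col14a1 passed through groups of other lines, since wildtype held 9 reads of it on day 0, 7 on day 1, and 1 on day 2 over the 3 libraries of a day.

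**Figure D1:**
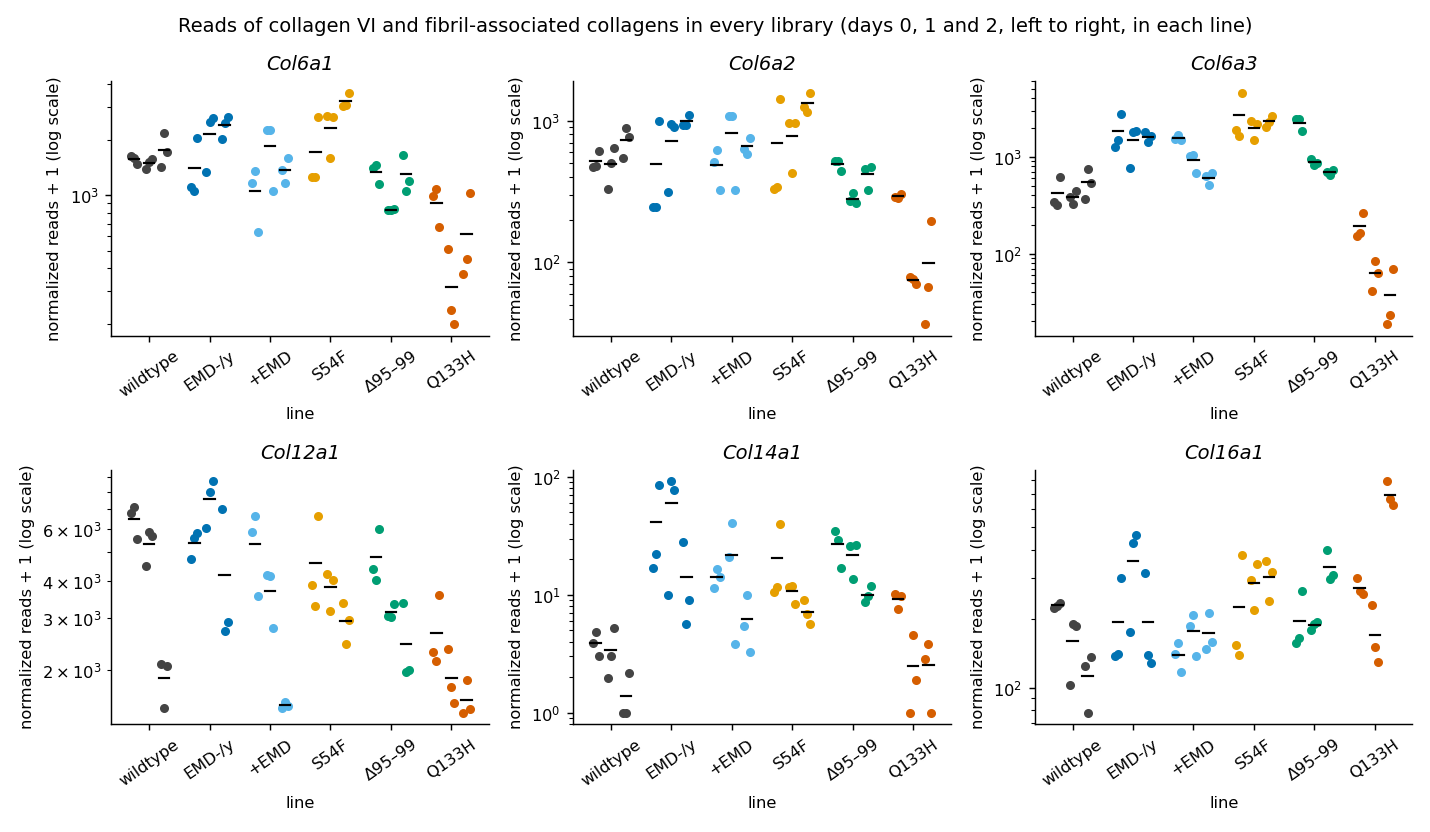
Normalized reads plus 1 (log scale) of the 6 genes in each of the 54 libraries, by line, with days 0, 1, and 2 from left to right within a line; points are libraries and bars are means of 3. Col6a3 in the 9 Q133H libraries lies between 17.8 and 260 normalized reads, below every wildtype library, and the 3 Q133H libraries of day 2 have the highest Col16a1 reads.

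Each line was compared with wildtype on the same day to find which collagen transcripts differ when emerin is absent or mutated. Differences were tested with limma across 14647 genes, and a gene was called when its Benjamini-Hochberg adjusted p was under 0.05 and its level differed at least 2-fold. Over the 15 comparisons, which share the 3 wildtype groups, 26 of the 90 tests of the 6 genes were called higher than wildtype and 9 lower. Of all tests of all genes, 8.07% were called higher and 8.01% lower. The higher calls comprised 11 for Col14a1, 10 for Col6a3, 4 for Col16a1, and 1 for Col12a1. Since Col14a1 passed the filter through groups where it was high, its calls against a wildtype near 0 were favored by the filter, and without it 15 of 75 tests, or 20.0%, were called higher. All 9 lower calls were in Q133H, and they comprised 3 for Col6a3 and 2 each for Col6a1, Col6a2, and Col12a1. With the closest pair averaged, 15 of the 26 higher and 8 of the 9 lower calls were kept.

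Col6a3 encodes the largest of the 3 chains, whose C-terminal C5 domain is cleaved off as endotrophin. In wildtype, the 3 libraries held 338, 314, and 611 normalized reads on day 0, 387, 326, and 442 on day 1, and 362, 754, and 531 on day 2. In EMD-/y, they held 1250, 1475, and 2754 on day 0, 764, 1811, and 1845 on day 1, and 1806, 1406, and 1627 on day 2. Every EMD-/y library was above every wildtype library of all 3 days. Col6a3 was higher in EMD-/y by a log2 fold change of 2.09 ± 0.37 (SE) on day 0, 1.84 on day 1, and 1.61 on day 2, with adjusted p of 3.79e-05, 0.000308, and 0.00128 by limma. With the closest pair averaged, the adjusted p was 0.0114 on day 0, and the call was lost on day 1 (adjusted p = 0.0657) and day 2 (adjusted p = 0.0729).

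Col6a3 was also higher than wildtype in 3 of the 4 transduced lines. S54F held 1879, 1620, and 4596 normalized reads on day 0, 2344, 1494, and 2160 on day 1, and 2053, 2289, and 2629 on day 2. All 9 S54F libraries were above every wildtype library, and the difference was called on all 3 days, at 5.99-fold, 5.13-fold, and 4.39-fold, also with the closest pair averaged. Library 3 of S54F on day 0 and library 3 of EMD-/y on day 0 stood apart in their groups, with more reads of Col6a1, Col6a2, Col6a3, Col14a1, and Col16a1 than the other 2. Leaving out any 1 library kept the Col6a3 calls of both lines, with log2 fold changes of at least 2.12 in S54F and 1.75 in EMD-/y on day 0.

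In +EMD and Δ95–99, the Col6a3 difference from wildtype was large on day 0 and did not pass the test on day 2. Libraries of +EMD held 1512, 1690, and 1492 normalized reads on day 0 and 627, 506, and 682 on day 2, where wildtype libraries held 362 to 754. Those of Δ95–99 held 2445, 2476, and 1848 on day 0 and 701, 646, and 738 on day 2. On day 0, the groups did not overlap with wildtype, and on day 2 they did. The log2 fold changes on days 0, 1, and 2 were 1.96, 1.23, and 0.19 in +EMD and 2.47, 1.19, and 0.40 in Δ95–99, with the first 2 called in each line. The day 1 calls were lost with the closest pair averaged, at adjusted p of 0.0869 in +EMD and 0.0687 in Δ95–99, while the day 0 calls were kept.

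Col6a1 and Col6a2 encode the α1 and α2 chains, which are about equal in length to each other and shorter than α3. Neither was called against wildtype in EMD-/y, +EMD, S54F, or Δ95–99 on any day. In EMD-/y, the log2 fold changes of Col6a1 were −0.23, 0.47, and 0.45 and those of Col6a2 were −0.40, 0.44, and 0.47 on days 0, 1, and 2. The nearest to a call was Col6a1 in S54F on day 2, where libraries held 3056, 3082, and 3591 normalized reads against 1412, 2157, and 1712 in wildtype. These libraries did not overlap, yet the log2 fold change of 0.90 was under 2-fold (adjusted p = 0.0414). Col6a1 in Δ95–99 on day 1 likewise passed the adjusted p (0.0372) at a log2 fold change of −0.84.

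Col14a1 encodes collagen XIV, which binds decorin and collagen fibrils. EMD-/y held 16.0, 21.3, and 85.1 normalized reads on day 0, 8.90, 91.0, and 76.2 on day 1, and 26.9, 4.69, and 8.04 on day 2, while no wildtype library held more than 4.19. The fitted log2 fold changes, on the scale of normalized reads plus 1, were 3.05 ± 0.73 (SE), 3.72, and 3.13, with adjusted p of 0.0019, 0.000214, and 0.00149. The libraries of a group varied widely, and the wildtype counts were few. The filter on low reads was passed only through groups of other lines. Calls of Col14a1 against wildtype were thus favored by the filter and are given as a description. The ratio of EMD-/y to wildtype reads per size factor was 13.7 on day 0 with an exact 95% counting interval of 7.0 to 30.7, 24.7 (11.7 to 62.3) on day 1, and 35.2 (5.90 to 1433) on day 2. In EMD-/y, the day 2 call was lost with voom weights (adjusted p = 0.0671) and the day 1 call in a fit of only the 2 groups (0.0569). The intervals cover counting error only, and leaving out 1 library moved the fitted value of day 1 between 3.14 and 4.75.

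Col14a1 was called higher in 8 of the 9 comparisons of +EMD, S54F, and Δ95–99 with wildtype, and the filter favored these calls likewise. Its fitted log2 fold changes were 1.86, 2.24, and 2.11 in +EMD and 2.74, 2.74, and 2.95 in Δ95–99. In S54F, they were 2.14, 1.75, and 2.45, of which the second did not pass the test (adjusted p = 0.0554). With the closest pair averaged, the 3 EMD-/y calls and the Δ95–99 calls of days 1 and 2 were kept, and the other 6 were lost, at adjusted p between 0.0590 and 0.159. With voom weights, all 3 calls of +EMD and both of S54F were lost (adjusted p between 0.0556 and 0.143). With a pseudocount of 5, those of +EMD on days 0 and 2 and of S54F on day 2 were lost (0.0599 to 0.166), and in a fit of only the 2 groups that of +EMD on day 1 (0.0809). The calls of +EMD were also lost without library 2 or 3 of +EMD or library 1 or 3 of wildtype on day 0 (adjusted p between 0.0659 and 0.0889), without library 2 of +EMD on day 1 (0.107), and without library 2 of +EMD or library 1 or 2 of wildtype on day 2 (0.0515 to 0.0829). The day 0 call of S54F was lost without library 3 of S54F (adjusted p = 0.153) or library 1 or 3 of wildtype (0.0502 and 0.0617). In Q133H, no Col14a1 comparison with wildtype was called, and the largest count was 9.19 normalized reads in a library of day 0.

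Col12a1 encodes collagen XII, which binds fibrils of collagen I and whose loss causes a myopathy with joint laxity. It was higher in EMD-/y than in wildtype on day 2, with 6984, 2720, and 2906 normalized reads against 2092, 1493, and 2072, a log2 fold change of 1.03 ± 0.27 (SE, adjusted p = 0.00443). The groups did not overlap, yet 1 EMD-/y library carried much of the difference: without library 1, the log2 fold change was 0.59 (adjusted p = 0.113). Without library 2 of wildtype, it was 0.87, and scaled by total reads it was 0.99. In a fit of only the 2 groups, the call was lost (adjusted p = 0.12). In +EMD, S54F, and Δ95–99, Col12a1 was not called against wildtype on any day, with log2 fold changes between −0.76 and 0.64.

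Col16a1 encodes collagen XVI, which binds α1β1 and α2β1 integrins. On day 2, wildtype libraries held 123, 76.9, and 135 normalized reads. S54F held 354, 237, and 319, and Δ95–99 held 398, 296, and 308, so both lay above wildtype with no overlap. The log2 fold changes were 1.45 ± 0.35 (SE, adjusted p = 0.00117) in S54F and 1.60 (adjusted p = 0.000148) in Δ95–99, and both calls were kept with the closest pair averaged. Col16a1 was also called in EMD-/y on day 1, at a log2 fold change of 1.09 (adjusted p = 0.0255). There, libraries of 174, 427, and 462 normalized reads overlapped wildtype libraries of 102, 189, and 185. The call was lost with the closest pair averaged (adjusted p = 0.3), in a fit of only the 2 groups (0.181), and without any of library 2 or 3 of EMD-/y or library 1 of wildtype (adjusted p of 0.139, 0.162, and 0.163).

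**Figure D2:**
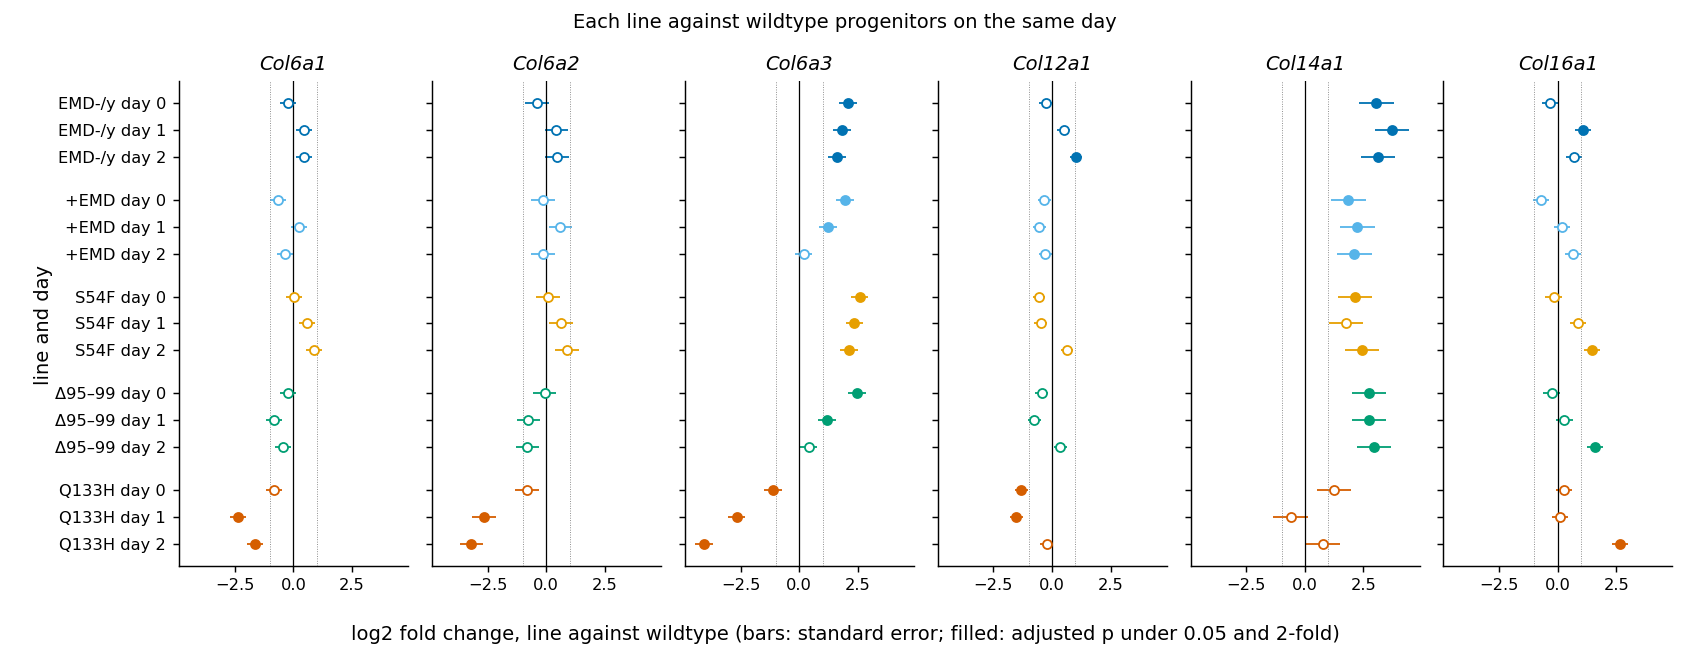
Log2 fold change of each line against wildtype on the same day (x axis) for the 6 genes, by line and day (y axis); bars are standard errors, filled points are called (adjusted p under 0.05 and 2-fold), and dotted lines mark 2-fold. Col6a3 and Col14a1 lie to the right in EMD-/y, +EMD, S54F, and Δ95–99, and in Q133H the 3 collagen VI genes lie to the left, Col6a3 as far as −4.07 on day 2.

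Q133H differed from the other lines in that all 3 collagen VI transcripts were lower than in wildtype. Of the 6 genes, 2 were called lower on day 0, 4 on day 1, and 3 on day 2, against 8.57%, 14.5%, and 15.3% of all genes on these days. Col6a3 libraries held 152, 162, and 260 normalized reads on day 0, 39.9, 83.6, and 61.5 on day 1, and 17.8, 22.5, and 68.7 on day 2. Each was below every wildtype library. Col6a3 was thus 2.16-fold lower than wildtype on day 0, 6.38-fold on day 1, and 16.8-fold on day 2 (log2 fold change −4.07 ± 0.37 SE, adjusted p = 2.1e-12). The day 0 call was lost with the closest pair averaged (adjusted p = 0.125), in a fit of only the 2 groups (0.0557), and without library 3 of wildtype (log2 fold change −0.81, adjusted p = 0.118) or library 1 or 2 of Q133H (adjusted p of 0.0734 and 0.0595).

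Col6a2 in Q133H held 286, 285, and 305 normalized reads on day 0, 77.3, 75.6, and 69.6 on day 1, and 35.6, 65.5, and 194 on day 2, where wildtype held 540, 889, and 764. Q133H did not overlap with wildtype on any day, with 470, 477, and 606 in wildtype on day 0. Col6a2 was 6.31-fold lower on day 1 (adjusted p = 1.95e-05) and 9.18-fold lower on day 2 (log2 fold change −3.20 ± 0.50 SE, adjusted p = 5.25e-07). Col6a1 held 509, 238, and 199 on day 1 and 374, 448, and 1024 on day 2, against at least 1376 and 1412 in wildtype. Col6a1 was 5.12-fold lower on day 1 (adjusted p = 2.22e-07) and 3.12-fold lower on day 2 (adjusted p = 6.23e-05). Neither was called on day 0, where the log2 fold changes were −0.81 for Col6a1 (adjusted p = 0.0579) and −0.82 for Col6a2 (adjusted p = 0.205), though the Col6a1 libraries did not overlap either, with at most 1072 in Q133H against at least 1472 in wildtype.

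Of the FACIT genes, Col12a1 was lower in Q133H than in wildtype on days 0 and 1 and Col16a1 was higher on day 2. Col12a1 libraries held 2304, 2148, and 3575 normalized reads on day 0 and 2354, 1749, and 1547 on day 1, below all wildtype libraries of those days. The log2 fold changes were −1.31 ± 0.27 (SE, adjusted p = 0.000157) and −1.52 (adjusted p = 7.53e-06), and on day 2, where Col12a1 was also low in wildtype, −0.24 (adjusted p = 0.445). Col16a1 held 792, 665, and 624 normalized reads on day 2, above each of the other 51 libraries, and was 6.31-fold higher than wildtype (log2 fold change 2.66 ± 0.35 SE, adjusted p = 1.26e-08). It was the only one of the 6 genes called higher in Q133H on day 2, when 17.9% of all genes were.

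Markers of muscle differentiation were lower in Q133H than in wildtype on days 1 and 2, as were the collagen VI genes. The summed normalized reads of 7 of 9 differentiating myocyte markers (Myog, Myh8, Mymk, Mymx, Ckm, Tnnt3, and Mylpf, the reads of Myh3 and Acta1 not having been recovered) were 83527 to 109981 in wildtype and 4810 to 5283 in Q133H on day 1. On day 2, they were 314008 to 337137 in wildtype and 20206, 24946, and 105568 in the 3 Q133H libraries. The library with the highest sum, library 3, was also the one with the most Col6a1, Col6a2, and Col6a3, and without it the day 2 log2 fold changes of these genes were −2.08, −3.86, and −4.65. All 7 tested markers were called lower in Q133H than in wildtype on days 1 and 2, against 14.5% and 15.3% of all genes. The sum was 78829 to 112924 on day 1 and 274274 to 358487 on day 2 in EMD-/y, overlapping wildtype, and 12214 to 21460 on day 1 in Δ95–99, and Col6a3 was above wildtype in each of these groups. Col6a1 and Col6a2 had means above wildtype in these EMD-/y groups. In Δ95–99 on day 1 they were below it, at 832 and 279 normalized reads against 1488 and 491. None of these Col6a1 and Col6a2 differences was called. The 7 myogenic progenitor markers summed to 24388 to 35548 in Q133H and 75084 to 87546 in wildtype on day 1. On day 2, they summed to 42620 to 93831 and 168650 to 178422, and on day 0 to 36102 to 47256 and 42717 to 45084, which overlap. In wildtype, this sum rose with the days of differentiation, so it is no measure of progenitor content. Of the 7 markers, Pax7 had its lowest group mean, 2.22 normalized reads, in Q133H on day 0 and its highest, 2113, in +EMD on day 0. The part of differentiation or of progenitor state in the Q133H results was not tested.

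The 10 genes listed as markers of fibroblasts or fibro-adipogenic progenitors summed to 3245 to 4472 normalized reads in wildtype and 2317 to 2582 in Q133H on day 1. On day 2, they summed to 3413 to 3760 and 3705 to 4179. Most of these reads were of Tcf4 and Ly6a, neither of which is specific to fibroblasts. The sum is thus no measure of fibroblast content. Of the others, Lum had at most 0.688 normalized reads in any group mean, Thy1, Lum, and Pi16 were at 0 in Q133H on days 1 and 2, and Dcn had at most 57.9. Osr1, Cd34, and Pdgfra had their highest group means in Q133H, at 230 on day 0 for Osr1 and 76.6 and 70.6 on day 2 for Cd34 and Pdgfra. Over all lines against wildtype, this list gave 14 higher and 37 lower calls in 135 tests, or 10.4% and 27.4%. All genes gave 8.07% and 8.01%. Osr1 was called higher in Q133H than in +EMD on all 3 days (log2 fold changes of 2.27, 2.79, and 1.52). The lowest group mean of Osr1, 23.5 normalized reads, was that of +EMD on day 1. Cd34 was called higher in Q133H than in wildtype on days 1 and 2 (2.10 and 4.09). Against +EMD, Cd34 was called higher in Q133H on day 0 (1.74) and was not called on days 1 and 2 (0.98 and 0.90). Dcn in Q133H was called higher than in +EMD on day 0 (1.06) and lower on day 1 (−1.59). The part of these markers in the collagen results was not tested. In such bulk samples, fewer cells of a type and less RNA per cell cannot be told apart. The 4 endothelial markers summed to at most 64.6 normalized reads in any library, and of 3 blood markers Ptprc and Adgre1 were at 0 in Q133H on day 2, where Cd68 had a mean of 113 (70.6 to 148 in the 3 libraries).

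Each transduced line was also compared with EMD-/y, the line it was made from, to see what an emerin form changed beside the absence of emerin. These 12 comparisons share the 3 EMD-/y groups. Of the 72 tests of the 6 genes, 20 were called lower and 1 higher than EMD-/y, against 7.66% and 5.16% of all tests. Q133H gave 12 of the 20 lower calls, Δ95–99 gave 5, +EMD gave 3, and S54F gave none. Of all genes, 7.51%, 14.3%, and 14.8% were called lower in Q133H on days 0, 1, and 2. The shares of all genes in Δ95–99, +EMD, and S54F alone are not given here. The split by line is thus a description and does not set the collagens apart from other genes. By gene, the 20 lower calls were 6 for Col12a1, 5 for Col6a3, 4 for Col6a2, 3 for Col6a1, and 2 for Col14a1. Without Col14a1, 18 of 60 tests were called lower.

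In +EMD, Col6a3 on day 2 was 2.67-fold lower than in EMD-/y (adjusted p = 0.00183), with 506 to 682 normalized reads against 1406 to 1806. Col12a1 was 2.05-fold lower on day 1 (adjusted p = 0.00165) and 2.50-fold lower on day 2 (adjusted p = 0.000102), and on both days the libraries did not overlap. The day 2 difference of Col12a1 was under 2-fold without library 1 of EMD-/y (log2 fold change −0.89), and that of day 1 without library 2 or 3 of EMD-/y or library 3 of +EMD (−0.99, −0.93, and −0.84) or scaled by total reads (−0.97). On day 0, none of the 6 genes was called between +EMD and EMD-/y, and Col6a3 had a log2 fold change of −0.14. Col14a1 was not called on any day, with log2 fold changes of −1.19, −1.47, and −1.01.

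In Δ95–99, Col6a1 and Col6a2 on day 1 were 2.48-fold (adjusted p = 0.00177) and 2.30-fold (adjusted p = 0.0454) lower than in EMD-/y. Col6a1 libraries held 827, 832, and 838 normalized reads against 1336, 2498, and 2627. Col12a1 on day 1 was 2.38-fold lower (adjusted p = 0.000201), with 3032 to 3359 against 6050 to 8676. On day 2, Col6a2 and Col6a3 were 2.40-fold and 2.31-fold lower (adjusted p of 0.031 and 0.00586). Of these 5 calls, only Col12a1 kept its call with the closest pair averaged, and the others had adjusted p between 0.0613 and 0.318. The Col6a2 calls were also lost without library 2 or 3 of EMD-/y or any 1 of Δ95–99 on day 1 (adjusted p between 0.0688 and 0.187), and without any 1 of EMD-/y or library 2 of Δ95–99 on day 2 (0.0506 to 0.108). Scaled by total reads, both Col6a2 calls were lost (0.0617 and 0.0738) and Col6a3 was under 2-fold (−0.97), and the day 1 call of Col6a2 was also lost with no filter (0.0579) and in a fit of only the 2 groups (0.0667). In S54F, all 18 tests were uncalled, and the log2 fold changes of Col6a3 were 0.49, 0.52, and 0.53.

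In Q133H, Col6a3 was 9.22-fold lower than in EMD-/y on day 0, 22.8-fold on day 1, and 51.2-fold on day 2 (log2 fold change −5.68 ± 0.37 SE, adjusted p = 5.83e-16). Called lower were 2 of the 6 genes on day 0, 5 on day 1, and 5 on day 2, against 7.51%, 14.3%, and 14.8% of all genes. On day 1, Col6a1 was 7.11-fold, Col6a2 8.55-fold, and Col12a1 4.03-fold lower. Col14a1 libraries held 0, 3.56, and 0.904 normalized reads on day 1 against 8.90, 91.0, and 76.2 in EMD-/y (adjusted p = 4.16e-06). The gene passed the filter through groups such as those of EMD-/y, so this call was favored by the filter. Col16a1 on day 2 was the 1 higher call, at 3.89-fold (adjusted p = 4.92e-06), with 624 to 792 normalized reads against 127 to 315. The day 0 call of Col12a1 was lost with the closest pair averaged (adjusted p = 0.0889) and fell under 2-fold without library 3 of EMD-/y or library 1 or 2 of Q133H (log2 fold changes of −0.98, −0.95, and −0.90). Scaled by total reads, Col12a1 was under 2-fold on days 0 and 2 (−0.97 and −0.99). Without library 1 of EMD-/y on day 2, Col12a1 was under 2-fold (−0.83) and Col14a1 did not pass the test (adjusted p = 0.0586).

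The mutant lines were set against +EMD, which was also transduced and selected with puromycin, though at a lower dose, in a comparison added after the data had been seen. Of 54 tests, 4 were called higher and 10 lower, against 7.32% and 6.39% of all tests. Without Col14a1, 9 of 45 tests, or 20.0%, were called lower. Col6a3 was lower in Q133H than in +EMD on days 0, 1, and 2, by log2 fold changes of −3.07, −3.91, and −4.26. Col6a2 was lower in Q133H on days 1 and 2, by −3.26 and −3.07, and Col6a1 by −2.59 and −1.29. Col16a1 was higher in Q133H on day 2, by 2.02, and Col14a1 lower on day 1, by −2.85. The day 2 call of Col6a1 was lost with the closest pair averaged (adjusted p = 0.0748), and that of Col14a1 in a fit of only the 2 groups (0.0647).

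S54F differed from +EMD in the opposite direction. Col6a3 was 2.18-fold higher on day 1 (adjusted p = 0.018) and 3.85-fold higher on day 2 (adjusted p = 4.74e-05), where 2053 to 2629 normalized reads stood against 506 to 682. The day 1 call was lost with the closest pair averaged (adjusted p = 0.155) and without library 3 of +EMD or library 1 or 3 of S54F (adjusted p of 0.0918, 0.0756, and 0.0608). Col6a1 was 2.37-fold higher on day 2 (adjusted p = 0.00326). In Δ95–99, Col6a1 and Col6a2 were lower than in +EMD on day 1 (adjusted p of 0.0165 and 0.0357), and both calls were lost with the closest pair averaged (adjusted p of 0.237 and 0.333). Both were lost without library 1 or 2 of +EMD (adjusted p between 0.0864 and 0.159), and that of Col6a2 without any 1 of Δ95–99 (0.0683 to 0.0922) and in a fit of only the 2 groups (0.0823). No Col12a1 test was called between a mutant line and +EMD.

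The change between consecutive days was compared within each line to follow the genes through differentiation. Of 72 tests of the 6 genes, 8 were called lower on the later day and 1 higher, against 8.18% and 9.14% of all tests. Without Col14a1, 6 of 60 tests, or 10.0%, were called lower. In wildtype, Col12a1 fell between days 1 and 2, from 4503, 5858, and 5685 normalized reads to 2092, 1493, and 2072, a log2 fold change of −1.51 ± 0.27 (SE, adjusted p = 9.22e-06). It was the 1 gene of the 6 with a called change in wildtype. The 3 collagen VI genes had log2 fold changes between −0.12 and 0.60 in wildtype, none of which passed the test.

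Col12a1 fell likewise in +EMD between days 1 and 2, by a log2 fold change of −1.26 (adjusted p = 0.000123). In EMD-/y, the change was −0.97 (adjusted p = 0.00224), under 2-fold, and in S54F, Δ95–99, and Q133H it was −0.39, −0.40, and −0.23 and did not pass the test. Col6a3 fell in Δ95–99 between days 0 and 1, from 1848 to 2476 to 824 to 940 normalized reads (log2 fold change −1.36, adjusted p = 0.0027), and the call was lost with the closest pair averaged (adjusted p = 0.069). Col14a1 was called lower on day 2 than on day 1 in EMD-/y, by −1.87 (adjusted p = 0.0276), with overlapping libraries. With the closest pair averaged, the value was −1.03 (adjusted p = 0.427), and the call was also lost in a fit of only the 2 groups (0.178) and without library 2 or 3 of either day (0.0816 to 0.176).

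In Q133H, the 3 collagen VI genes and Col14a1 fell between days 0 and 1. The share of all genes called in this transition alone is not given here. Col6a1 fell 3.07-fold (adjusted p = 0.000222), Col6a2 3.90-fold (adjusted p = 0.00167), Col6a3 3.11-fold (adjusted p = 0.000478), and Col14a1 4.45-fold (adjusted p = 0.0163). The libraries of the 2 days did not overlap for any of these genes. With the closest pair averaged, the 3 collagen VI calls were kept and that of Col14a1 was lost (adjusted p = 0.0728), as it was with a pseudocount of 5 (0.107), with voom weights (0.081), and without library 1 of day 1 (0.11). Between days 1 and 2, Col16a1 rose 4.19-fold in Q133H (log2 fold change 2.07 ± 0.35 SE, adjusted p = 7.11e-06), from 229, 149, and 128 to 792, 665, and 624 normalized reads.

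**Figure D3:**
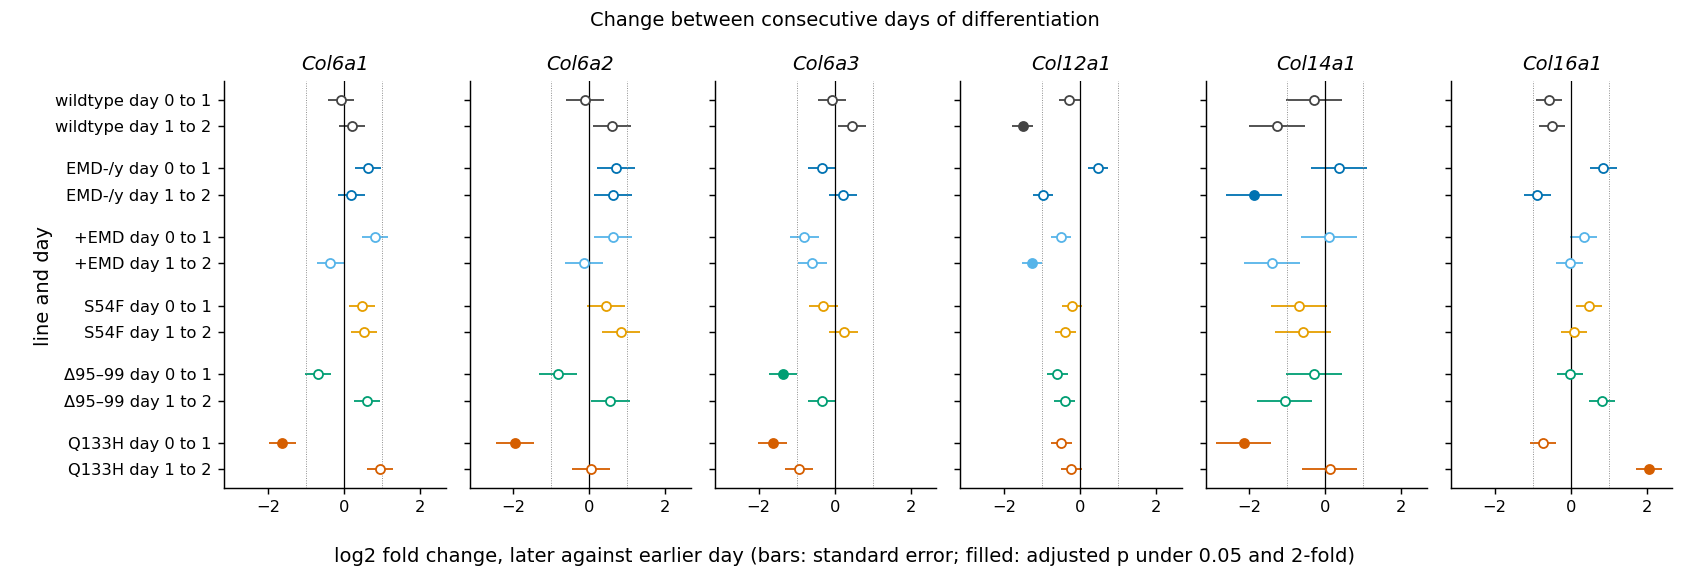
Log2 fold change between consecutive days (x axis) for the 6 genes, by line and transition (y axis); bars are standard errors, filled points are called, and dotted lines mark 2-fold. In Q133H, the 3 collagen VI genes and Col14a1 lie left of −1 between days 0 and 1, and Col16a1 lies at 2.07 between days 1 and 2.

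Whether a line changed differently from wildtype was tested as the difference between the 2 transitions, which was called at an adjusted p under 0.05 with no fold limit. Of 60 such tests, 8 were called, against 22.7% of all tests. Between days 0 and 1, the change in Q133H was lower than in wildtype by 1.54 on the log2 scale for Col6a1 (adjusted p = 0.00974), by 1.84 for Col6a2 (adjusted p = 0.0337), and by 1.56 for Col6a3 (adjusted p = 0.0152). Between days 1 and 2, it was lower for Col6a3 and higher for Col12a1 and Col16a1, and the change in Δ95–99 was higher than in wildtype for Col12a1 and Col16a1. Only the Col16a1 difference in Q133H, 2.55 ± 0.49 (SE, adjusted p = 6.85e-05), kept its call with the closest pair averaged (adjusted p = 0.0206), and the other 7 had adjusted p between 0.101 and 0.298.

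The composition of the collagen VI message was described on the scale of normalized reads per kilobase. In wildtype, the 3 genes summed to 574 on day 0, 544 on day 1, and 694 on day 2, of which Col6a1 took 68.4%, 68.9%, and 63.8% and Col6a3 took 7.89%, 7.72%, and 8.42%. In the line EMD-/y, Col6a3 took 29.7% ± 2.63 (SD, n = 3) on day 0, 17.7% on day 1, and 17.1% on day 2. On day 0, its share was 31.6% in +EMD, 32.2% in S54F, and 34.4% in Δ95–99. No library of these 4 lines had a Col6a3 share on day 0 under 26.7%, while no wildtype library had a share above 11.1% on any day.

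The share was lower on each later day in these lines, at 11.2% in +EMD, 17.8% in S54F, and 15.01% in Δ95–99 on day 2. In Q133H, Col6a3 took 6.65% on day 0, 7.32% on day 1, and 2.02% ± 0.30 (SD, n = 3) on day 2, with libraries between 1.84% and 2.36%. The day 2 sum of the 3 genes was 184 in Q133H, 694 in wildtype, and 1415 in S54F. Col6a1 took 85.2% of the sum in Q133H on day 2, so the loss of message was unequal among the 3 chains. The shares are given as a description, with no test.

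**Figure D4:**
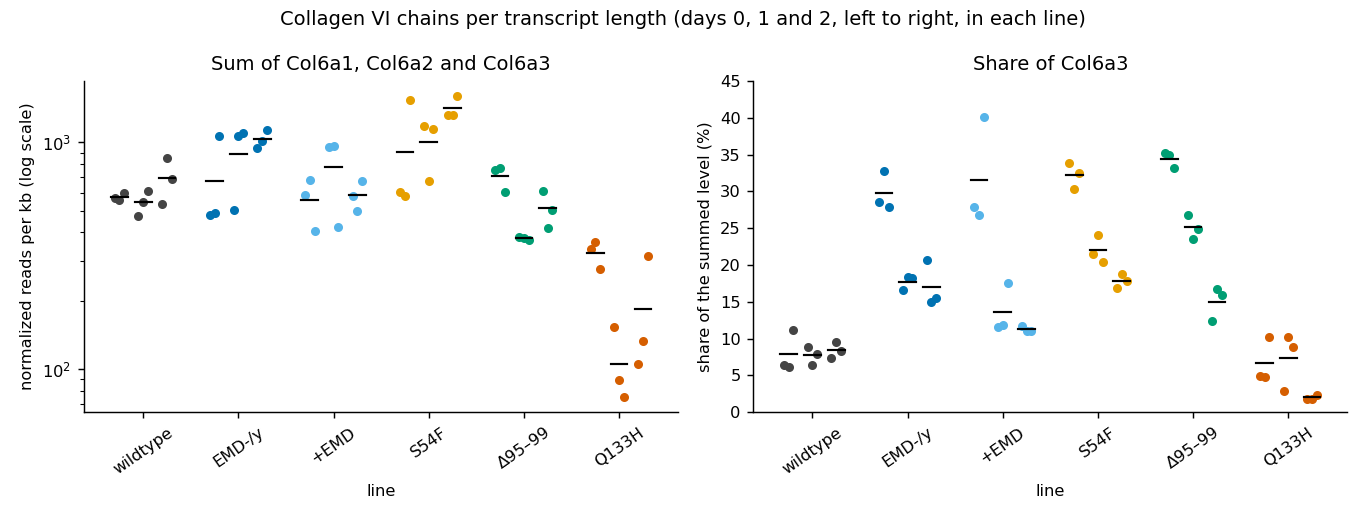
Left, summed normalized reads per kb of Col6a1, Col6a2, and Col6a3 (log scale), and right, the percentage of this sum from Col6a3, by line with days 0, 1, and 2 from left to right; points are libraries and bars are means of 3. The Col6a3 share is 7.72% to 8.42% in wildtype means, 29.7% to 34.4% in EMD-/y, +EMD, S54F, and Δ95–99 on day 0, and 2.02% in Q133H on day 2.

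Ordered by the mean of the 18 groups, Col6a3 was highest in S54F on day 0 and lowest in Q133H on day 2, and the 3 wildtype groups ranked 13, 14, and 15, just above the 3 Q133H groups. Neighbors in this order mostly overlapped in their libraries, and 3 neighboring pairs did not, namely days 1 and 2 of Δ95–99, wildtype on day 1 and Q133H on day 0, and days 0 and 1 of Q133H. Col6a1 was highest in S54F on day 2, with no overlap with the next group. Col16a1 in Q133H on day 2 likewise stood clear of the next group, as did Q133H on day 0 of wildtype on day 0. For Col12a1 and Col14a1, all neighboring groups overlapped. Col12a1 ran from 7563 normalized reads in EMD-/y on day 1 to 1522 in +EMD on day 2.

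Across the 18 group means of log2 level, Col6a1 and Col6a2 had a Pearson r of 0.963. The r with Col6a3 was 0.765 for Col6a1 and 0.837 for Col6a2. Col16a1 had r between −0.28 and 0.07 with the other 5. The groups share lines, days, and library preparation, so these values describe the pattern only. Among the 10407 genes whose mean reached 100 normalized reads, the nearest to Col6a1 after Col6a2 were Cd248 (r = 0.946), a collagen-binding surface protein of stromal cells, and Htra3 (0.928). Nearest to Col6a2 after Col6a1 were Cd248 (0.959) and Kcnh2 (0.949).

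Col6a3 was nearest to Pitx3 (0.875), Spock2 (0.871), and Emilin1 (0.868), of which Pitx3 is a homeodomain factor of the myogenic lineage and Emilin1 a glycoprotein of elastic fibers. Col12a1 was nearest to Rcn3 (0.884), B4galt5 (0.879), and Fbn1 (0.870), which encodes the microfibril protein fibrillin-1. Col14a1 was nearest to Dact1 (0.866), the Wnt receptor Fzd4 (0.864), and Chd9 (0.803). Col16a1 was nearest to Amdhd2 (0.820), the natriuretic peptide receptor Npr2 (0.814), and Tmem104 (0.813).

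The other collagen VI genes encode chains that can replace α3. Col6a4 and Col6a5 were under the filter on low reads, and Col6a6 was tested. Col6a6 had mean normalized reads of 5.58, 10.97, and 37.1 in EMD-/y on days 0, 1, and 2, against 0, 0.669, and 0.776 in wildtype. In +EMD, it had 1.34, 0.909, and 55.5. It passed the filter only through these lines, where it is high, so its values are given with no test. It was listed at 0 in all 9 Q133H libraries, and S54F and Δ95–99 reached 6.63 and 5.84 on day 2.

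Of the 7 other FACIT genes, 5 were tested. Against wildtype, these gave 7 higher and 19 lower calls in 75 tests, or 9.33% and 25.3%, where all genes gave 8.07% and 8.01%. Col19a1, the most abundant, was lower than wildtype in Δ95–99 on all days, with 19.8 mean normalized reads against 350 on day 1 (log2 fold change −4.01), and in Q133H on days 1 and 2 (−2.81 and −2.23). It was higher than wildtype on day 2 in EMD-/y (1.43) and S54F (1.33). Col9a3, a chain of cartilage collagen IX, was higher in Q133H on days 0 and 2 (1.12 and 2.16) and lower on day 1 (−1.09). Col20a1 was lower on day 1 in +EMD, S54F, Δ95–99, and Q133H, by −3.63, −2.62, −2.20, and −2.61.

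The 11 fibrillar collagen genes, which encode the fibrils that FACITs decorate, gave 23 higher and 36 lower calls in 165 tests against wildtype, or 13.9% and 21.8%, beside the same 8.07% and 8.01% of all genes. In Q133H on day 1, 7 of the 11 were lower and 1 higher, against 14.5% and 9.72% of all genes, with a median log2 fold change of −1.06 where that of all genes was 0.01. The 6 genes of this report had a median of −1.94 there. Col3a1 was lower in Q133H on days 0 and 1 (−1.01 and −1.68) and was not called in the other lines. Col1a2 had 335, 648, and 1641 mean normalized reads in +EMD against 32026, 36470, and 17429 in wildtype (−6.59, −5.89, and −3.56), while Col6a3 was higher in +EMD than in wildtype on days 0 and 1. Col11a1 was lower in +EMD on days 0 and 1 (−4.18 and −3.31) and higher in Q133H on days 0 and 2 (1.42 and 2.44).

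Matrix partners of these collagens gave 14 higher and 41 lower calls in 165 tests of 11 genes, or 8.48% and 24.8%. All genes gave 8.07% and 8.01%, so the share of higher calls was near that of all genes. Fmod, which encodes fibromodulin, had 106 mean normalized reads in wildtype and 0.297 in Q133H on day 1 (−6.03), and was also lower on all days in Δ95–99 and +EMD. Matn4, a matrilin, was higher on day 2 in Q133H (2.72) and Δ95–99 (2.00). Fn1, Bgn, and Hspg2, which encode fibronectin, biglycan, and perlecan, were abundant, and the only calls among their 45 tests were Fn1 (1.03) and Bgn (1.01) in Q133H on day 2. The 11 collagen receptor genes gave 23 higher and 17 lower calls in 165 tests, or 13.9% and 10.3%, beside the same 8.07% and 8.01%. Of these genes, Itga11, an integrin chain for fibrillar collagen, was lower in Q133H on days 1 and 2 (−4.47 and −2.82), and Itga2 higher on day 2 (3.64). Itgb1, Ddr1, and Mrc2 had 3 calls, Ddr1 lower in Δ95–99 and Q133H on day 1 and Mrc2 higher in Q133H on day 2.

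The genes for collagen folding and processing gave 4 higher and 23 lower calls in 300 tests of 20 genes, or 1.33% and 7.67%, against 8.07% and 8.01% of all genes. Serpinh1, the collagen chaperone Hsp47, and P4hb, a subunit of prolyl 4-hydroxylase, were not called in any line against wildtype, with log2 fold changes between −0.69 and 0.51. Mmp14, a membrane collagenase, was higher in Q133H on day 2 (1.42). Adamts2, the N-propeptidase of fibrillar procollagens, was lower than wildtype on all days in +EMD (−6.81, −5.10, and −4.95), S54F, and Δ95–99, and was not called in EMD-/y or Q133H. P4ha3 was lower on at least 1 day in each of the 4 transduced lines.

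**Figure D5:**
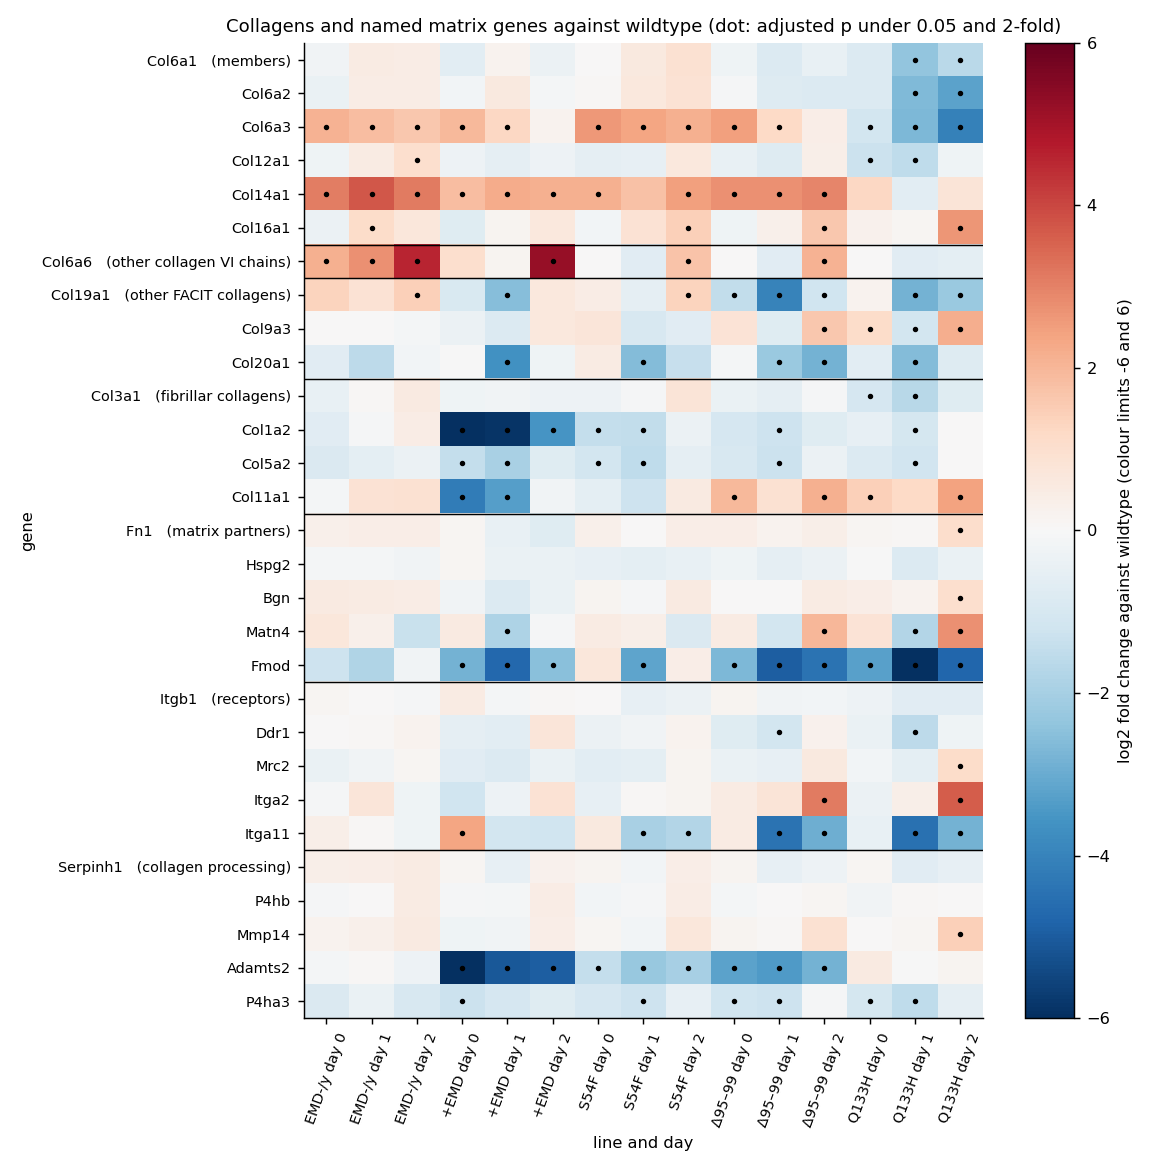
Log2 fold change against wildtype, in color from −6 (blue) to 6 (red), of the 6 genes and of other collagen, matrix, receptor, and processing genes (rows) in each line and day (columns); dots mark calls. Values of Adamts2 (−6.81) and Col1a2 (−6.59) in +EMD on day 0 and of Fmod in Q133H on day 1 (−6.03) lie past the end of the color scale.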

How the data were processed

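RNA of 54 samples of H2K progenitors was sequenced on the BGISEQ platform, and the reads were filtered with SOAPnuke, mapped with HISAT2 to mm10, and tested in pairwise group comparisons with DESeq2 by the provider of the authors. The 27 tables as deposited by the authors hold 2 signal values per gene, normalized read values for the groups compared, whose sum is the sum of the 2 group means. They also hold the authors' fold changes, p-values, q-values, and calls, which were not used, and 0 columns of single samples. The split between the 2 values was nearer to equal than that of plain means in 96.269% of gene-tables.

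The reads of each library were therefore recovered from the sums. Values of genes with 1 read give the size factors, and whole reads of 18 libraries were solved from 7 tables at a time, in 5 systems, with a relative tolerance of 3e-14. This recovered 19645 of 19653 genes, and wildtype reads were the same in all 5 systems for 15126 of 15128 genes. The 8 others (Acta1, Actc1, Actg1, Eef1a1, Igf2, Myh3, Spp1, and 1 predicted gene) have no reads here. The recovery was tested on simulated data.

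Reads were scaled by the median of ratios, and log2(normalized reads + 1) of 14647 genes with a mean of at least 10 in a group was fitted with limma 3.58.1 (R 4.3.3) with a trend, over all 18 groups. The design foresaw recovery from single group means, and the sums were used since the columns are not such means. The fit was tested on simulated data. A level per kilobase uses the deposited length. Libraries that stood apart were found by chi-square per gene among genes with at least 20 reads in the pair. The pair averaged was that with the smallest mean squared difference of log2 level over the genes tested. Both rules gave the same pair in 17 of the 18 groups, all but +EMD on day 0.

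The 6 genes, the lists, and the tests were chosen with earlier results of these data known. Of each list, the 3 genes with the highest mean and the 2 with the widest range were named, and for each of the 6 genes the 3 with the highest r. Alternatives were scaling by total reads, no filter, a pseudocount of 5, voom weights, only the groups compared, an adjusted p under 0.01, no fold limit, deposited values with no test, and leaving out each library. Averaging the closest pair and comparing mutant lines with +EMD were chosen after seeing the data. Promoters are from RefSeq.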

Additional observations from a re-analysis of the deposited data

Results flagged for a closer look

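Of the differences between the change of a line and that of wildtype over the same transition, 8 of 60 passed the limma interaction test at an adjusted p under 0.05, or 13.3%, against 22.7% of all tests of all genes. With the closest pair averaged, only the Col16a1 value of Q133H kept its call. All 5 lines were compared with the same wildtype transition. In Q133H between days 0 and 1, the differences on the log2 scale were −1.54 for Col6a1, −1.84 for Col6a2, and −1.56 for Col6a3. Between days 1 and 2, they were −1.40 for Col6a3, 1.28 for Col12a1, and 2.55 for Col16a1. In Δ95–99 between days 1 and 2, they were 1.11 for Col12a1 and 1.32 for Col16a1. The Col6a2 value lost its call without library 3 of day 0 or library 2 or 3 of day 1 of Q133H, or library 1 or 2 of day 0 or library 2 or 3 of day 1 of wildtype (adjusted p between 0.0512 and 0.0885), and the first Col6a3 value without library 3 of day 0 or library 1 of day 1 of Q133H (0.0536 and 0.055). The second Col6a3 value lost its call without library 2 or 3 of day 1 or library 1 or 2 of day 2 of Q133H, or library 2 of day 1 or 2 of wildtype (0.053 to 0.126). The Col12a1 value of Δ95–99 lost its call without library 1 of day 2 of Δ95–99, or library 2 or 3 of day 1 or library 2 of day 2 of wildtype (0.051 to 0.101), and the Col16a1 value of Δ95–99 without those or any 1 of day 1 of Δ95–99 (0.0547 to 0.119). Groups of 3 libraries were not tested for outliers.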

How the results depend on the processing

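No paired analysis was possible because the recovered libraries carry no replicate number. No value of the 6 genes changed direction past the threshold under any alternative. Against wildtype, 26 higher calls became 15 with the closest pair averaged, and leaving out 1 library gave 24 to 28 higher and 8 to 9 lower calls. Between days, 1 higher call became 5 with no fold limit, and 8 lower calls became 5 with the closest pair averaged. Leaving out 1 library gave 1 to 3 higher calls, with 3 without library 3 of EMD-/y on day 0 or library 1 on day 1, and 7 to 10 lower calls. Against EMD-/y, 1 higher call became 2 with total reads and 2 with no fold limit, and comparing the mutant lines with +EMD in its place gave 4 higher and 10 lower. Leaving out 1 library gave 1 to 3 higher calls, with 3 without library 1 of EMD-/y on day 2, and 18 to 30 lower calls, with 30 without library 1 of EMD-/y on day 1. Of the differences between transitions, 8 became 5 with voom weights, 1 with the closest pair averaged, and 3 at an adjusted p under 0.01. Leaving out 1 library gave 4 to 10, with 4 without library 2 of wildtype on day 1 and 10 without library 3 of S54F on day 0. The cause of these changes was not tested. Averaging pairs leaves 2 values a group. Scaling by total reads shifted the median of all genes by at most 0.278 on the log2 scale, over 0.1 in 13 of 48 comparisons. Depth limits Col14a1 most, with 1 to 9 wildtype reads on a day.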
